A study of Homo sapiens with 6 samples.

Results

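The 10 genes described here are the core of the ATF4 pathway, the transcription programme that cells switch on when amino acids run short or unfolded proteins accumulate. They were chosen by gene symbol from the deposited table of TPM values (a relative transcript level, scaled to transcript length and to the sum over each library), and all 10 were among its 25662 genes. The members are ATF4, ATF5, DDIT3, TRIB3, CHAC1, ASNS, PCK2, CEBPB, CEBPG and DDIT4. RNA was sequenced from HCT116, an established cell line of human colorectal carcinoma, transfected with an siRNA against RRN3 (siRRN3, n = 3) or with a control siRNA (control, n = 3). RRN3 recruits RNA polymerase I to the ribosomal RNA genes, and the comparison asks which transcripts change when it is depleted. Both groups were grown in McCoy's 5a medium with serum, the design text calls the replicates biological, and neither the siRNA sequences nor the time after transfection is given in the sources used here.

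In the integrated stress response, 4 kinases, EIF2AK1 to EIF2AK4, phosphorylate the translation factor eIF2. Most translation then slows, while the ATF4 mRNA is translated more through short open reading frames ahead of its coding sequence. ATF4 is a basic leucine zipper factor that pairs with C/EBP proteins on composite C/EBP-ATF elements and raises genes of amino acid uptake, synthesis and tRNA charging. DDIT3, also called CHOP, and TRIB3 act later in the same response. ATF4 protein is set largely by translation, so an mRNA level does not give the level of the protein.

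The composite element read by ATF4 and C/EBP factors was searched for as TGATGNAA, on both strands, in RefSeq promoter windows of 300 bases (GRCh38.p14, 250 before and 50 after each annotated start). All 10 members matched a window by symbol, and 3 of them, ASNS, CHAC1 and CEBPG, held the letters. This compares with 4.46% of the 27305 genes with a window and 3.62% of the 35116 windows. Among the 9551 genes with a window that averaged at least 1 TPM, 2.47% held the letters. The sites are shown because their letters match the composite element, with the motif in capitals, and binding at them was not tested. Each is given 5′ to 3′ on the strand that holds the motif as written. The ASNS site is chr7:97872458-97872487 on the minus strand, with the motif's first base, as printed, at position -68 from the annotated start. The CHAC1 site is chr15:40953251-40953280 on the minus strand, at position -202, and the CEBPG site is chr19:33374060-33374089 on the plus strand, at position -42 from the later of its annotated starts.
ASNS: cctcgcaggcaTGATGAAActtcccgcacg
CHAC1: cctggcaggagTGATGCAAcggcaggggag
CEBPG: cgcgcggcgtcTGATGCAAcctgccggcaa
The CHAC1 and CEBPG sites share the letters TGATGCAA, and ASNS holds TGATGAAA. A match is a description of the letters, and a window with no match says only that these letters are not in it.

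RRN3 was at 2.70, 1.22 and 0.925 TPM in the siRRN3 libraries, against 20.9, 14.7 and 14.1 TPM in the control libraries, with an exact two-sided permutation p of 0.1, the smallest that 3 against 3 allow. Summed TPM per library was 991305 to 992042, and the sequencing depth is unknown because TPM keeps none. On the second principal component (23.4% of the variance) both libraries numbered 1 stood apart, at 31.6 for siRRN3 and 17.8 for control, against -23.0 to -5.1 for the others. Their deviations from the group mean correlated with transcript GC content by -0.51 for siRRN3 and -0.47 for control, against 0.07 to 0.46 for the others. Transcripts of the mitochondrial genome took 26.7% to 29.3% of TPM in siRRN3 libraries and 23.3% to 25.7% in control libraries. Of 8 epithelial marker genes, 6 had a mean of at least 1 TPM, and the summed level of the list was 12736 to 13924 TPM in siRRN3 libraries and 5778 to 6852 TPM in control libraries. KRT8, KRT18 and KRT19, structural keratins, rose (log2 changes of 1.20, 1.19 and 1.01). EPCAM, CDH1 and CLDN4, genes of epithelial adhesion and junctions, did not pass the test (log2 changes of 0.10, 0.31 and 0.15), and CEACAM5 and VIL1 were under 1 TPM. Without the keratins the summed level of the list was 566 to 609 TPM in siRRN3 and 496 to 542 TPM in control libraries. The summed level of 5 immune markers was 1.79 to 2.84 TPM in siRRN3 and 2.39 to 5.07 TPM in control libraries, and that of 6 endothelial markers 0.167 to 0.240 TPM in siRRN3 and 0.243 to 0.820 TPM in control libraries. The sum of 6 fibroblast markers, 6.89 to 7.80 TPM in siRRN3 and 8.65 to 10.8 TPM in control libraries, came mostly from COL1A1. CD3E, COL1A2, DCN and LUM were listed at 0 in all 6 libraries. With mitochondrial and ribosomal protein genes taken out of the scaling, 8 members fell. Over all genes 19.4% fell and 14.3% rose in that fit. What part the rise of the keratin genes has in the results was not tested.

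After RRN3 siRNA, 8 of the 10 members fell, 0 rose and 2, CEBPG and DDIT4, did not pass the test. CHAC1, ASNS and PCK2, which act in glutathione breakdown, asparagine synthesis and mitochondrial phosphoenolpyruvate synthesis, were at 28.6%, 37.8% and 38.2% of their control means. DDIT3 was at 47.5%, and ATF4, TRIB3, CEBPB and ATF5 were at 67.0% to 70.6%. The test was limma on log2(TPM + 1) over all 12157 genes with a mean of at least 1 TPM, with Benjamini-Hochberg adjustment and a threshold of 0.05. Across those genes 19.0% fell, 11.2% rose and 30.3% changed in either direction. The median log2 change was -0.56 over the members and -0.05 over all genes tested. The count of members that fell was 8 without both libraries numbered 1, and 6 without siRRN3 replicate 2. Over all genes 25.3% and 11.9% fell in those fits. In these bulk cultures, fewer cells with a transcript and less of it per cell cannot be told apart.

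**Figure D1:**
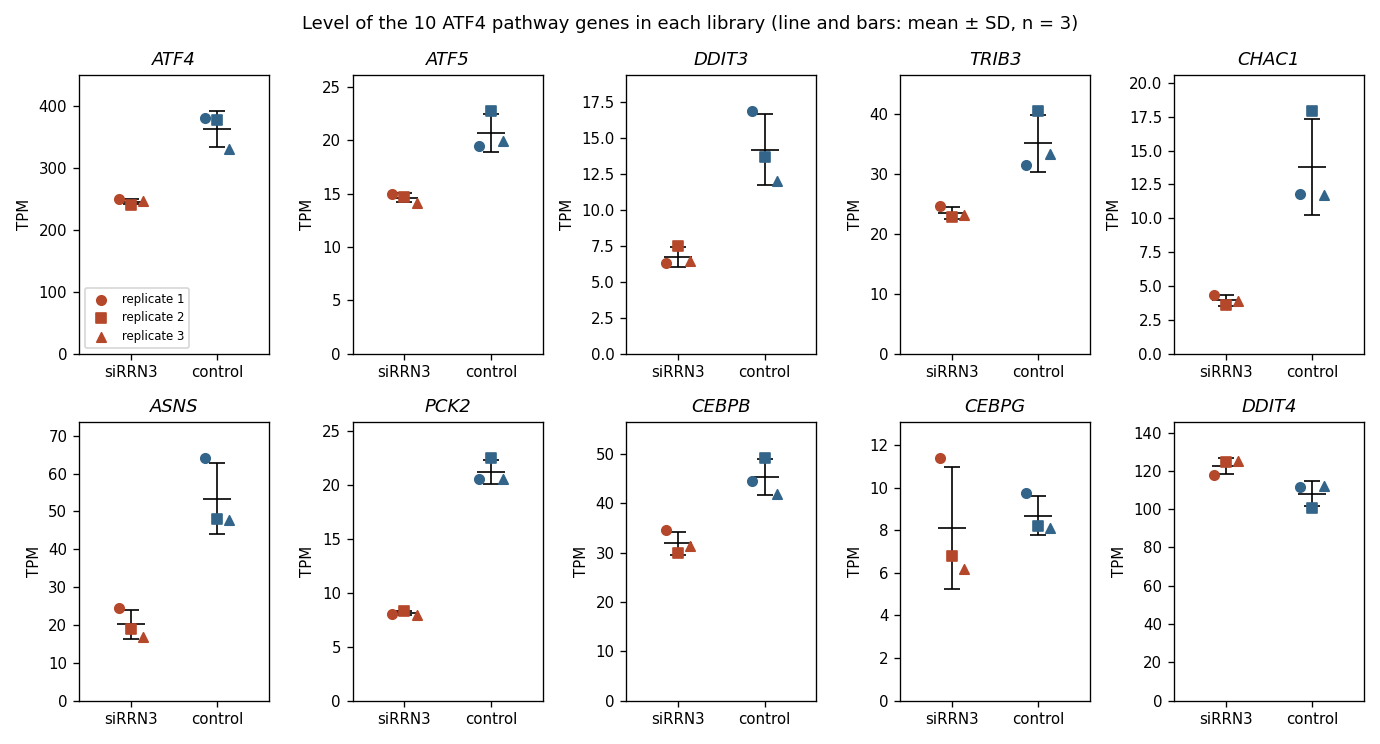
Level in TPM (y axis, from 0) of each of the 10 genes in the 3 siRRN3 and 3 control libraries, with symbols for the replicate number and black lines for the mean ± SD. In 8 panels each siRRN3 point lies below each control point, which held for 26.9% of all genes tested. CEBPG overlaps. For DDIT4 the siRRN3 points (117.9 to 125.3 TPM) lie above the control points (100.7 to 112.1 TPM), as for 17.9% of all genes tested.

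ATF4 (chr22:39519695-39522685, plus strand, GRCh38, GENCODE 29) was the most abundant member in both groups. Its level was 249, 241 and 246 TPM in siRRN3 libraries, against 381, 378 and 330 TPM in control libraries. The groups did not overlap, which held in the same direction for 26.9% of all genes tested. The means were 246 ± 4.21 TPM for siRRN3 and 363 ± 28.6 TPM for control (SD, n = 3 each), a log2 change of -0.56 (SE 0.08, limma adjusted p = 0.00138). The spread was small among siRRN3 libraries, and in the control group replicate 3 was the lowest. Of the tested genes, 14.6% had a lower log2 change than ATF4. Its pseudogenes ATF4P1 to ATF4P4 reached at most 0.118 TPM in any library.

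ATF5 (chr19:49928702-49933935, plus strand) encodes a related leucine zipper factor that, like ATF4, is controlled through upstream open reading frames. It was at 15.0, 14.7 and 14.2 TPM in siRRN3 libraries, against 19.5, 22.7 and 19.9 TPM in control libraries. The groups did not overlap, and the log2 change was -0.47 (SE 0.11, limma adjusted p = 0.0133). Without siRRN3 replicate 2 the call ended (adjusted p = 0.063, range over the 19 alternatives 0.00402 to 0.063). Its exons share 626 of 2954 annotated bases (21.2%) with NUP62, a nuclear pore gene on the opposite strand. NUP62 averaged 45.9 TPM in siRRN3 and 65.2 TPM in control libraries (log2 change -0.50). Whether reads were counted by strand is not given in the sources used here, so reads of these genes may not have been separated.

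The C/EBP members encode partners of ATF4. CEBPB (chr20:50190734-50192689, plus strand), a regulator of inflammatory and metabolic genes, was at 34.5, 29.8 and 31.4 TPM in siRRN3 libraries, against 44.6, 49.2 and 42.0 TPM in control libraries. The groups did not overlap, and CEBPB fell by 0.49 on the log2 scale (SE 0.10, limma adjusted p = 0.00825). That call also ended without siRRN3 replicate 2 (adjusted p = 0.0504, range 0.00138 to 0.0504), and the log2 change was -0.25 after removal of each library's GC trend. CEBPG (chr19:33373330-33382686, plus strand), a short C/EBP protein with a leucine zipper that pairs with ATF4, was at 11.4, 6.81 and 6.16 TPM in siRRN3 libraries, against 9.74, 8.23 and 8.10 TPM in control libraries. The groups overlapped, since replicate 1 was the highest library in each group and the other siRRN3 libraries were below all control libraries. Its log2 change was -0.13 (SE 0.22, 95% interval -0.63 to 0.38, limma adjusted p = 0.713). Without both libraries numbered 1 it was -0.29, and without siRRN3 replicate 3 its sign turned (0.03), with no alternative past the threshold.

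DDIT3 and TRIB3 are the later regulators of the response. DDIT3 (chr12:57516588-57521737, minus strand), the pro-apoptotic factor CHOP, was at 6.27, 7.51 and 6.41 TPM in siRRN3 libraries, against 16.8, 13.7 and 12.0 TPM in control libraries. The groups did not overlap, and DDIT3 fell by 0.96 on the log2 scale (SE 0.16, limma adjusted p = 0.00281), and by 0.80 without both libraries numbered 1. Of its 1307 annotated exon bases, 355 (27.2%) are shared with MARS1, a tRNA synthetase gene on the opposite strand, at 150 TPM in siRRN3 and 139 TPM in control libraries. The DDIT3 level is uncertain to the extent that reads were not separated by strand. TRIB3 (chr20:362835-397559, plus strand), a pseudokinase that restrains ATF4 and AKT, was at 24.7, 22.8 and 23.1 TPM in siRRN3 libraries, against 31.6, 40.5 and 33.4 TPM in control libraries. Again each siRRN3 library was lower than each control library, and control replicate 2 stood highest. The log2 change was -0.55 (SE 0.12, limma adjusted p = 0.00901), past the threshold in each of the 19 alternatives, with a highest adjusted p of 0.0476.

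**Figure D2:**
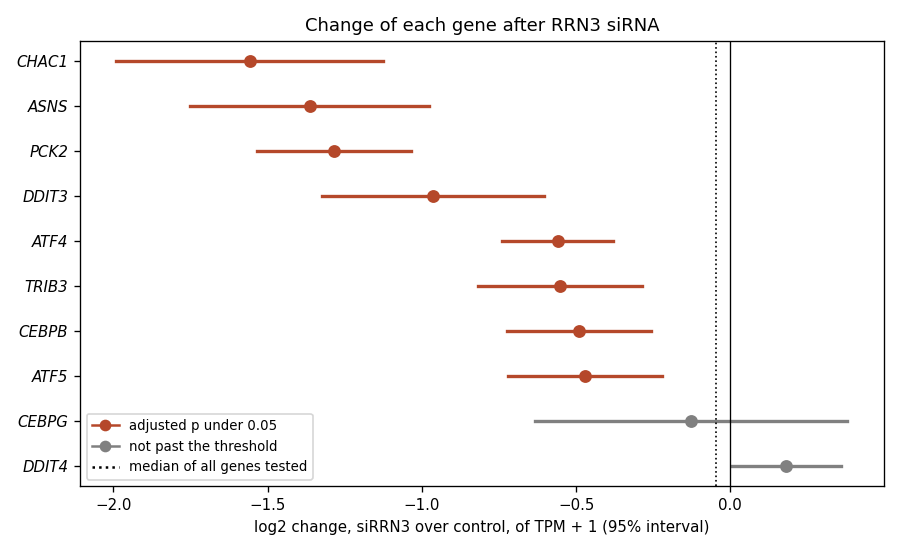
Log2 change of TPM + 1, siRRN3 over control, for each gene (point) with its 95% interval (line), coloured when past the threshold; the dotted line is the median of all genes tested, -0.05. The intervals of CHAC1, ASNS and PCK2 lie wholly below that of ATF4, and the intervals of ATF4, TRIB3, CEBPB and ATF5 overlap.

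Among the enzymes that ATF4 raises, CHAC1 (chr15:40952962-40956519, plus strand), which degrades glutathione, had the largest fall of the 10. It was at 4.37, 3.58 and 3.90 TPM in siRRN3 libraries, against 11.8, 17.9 and 11.7 TPM in control libraries. The siRRN3 libraries lay close together and the groups were far from overlapping, with control replicate 2 the highest. The log2 change was -1.56 (SE 0.19, limma adjusted p = 0.000757), and 1.09% of all genes tested had a lower one. On the log2(TPM + 1) scale the change of such a low gene is understated, and it was -1.76 with a pseudocount of 0.1.

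ASNS (chr7:97852118-97872542, minus strand) encodes asparagine synthetase, which makes asparagine from aspartate and glutamine. It was at 24.5, 19.0 and 16.9 TPM in siRRN3 libraries, against 64.1, 48.1 and 47.8 TPM in control libraries. Replicate 1 was the highest library in each group, yet the highest siRRN3 library was still far below the lowest control library. ASNS fell by 1.36 on the log2 scale (SE 0.17, limma adjusted p = 0.000839), and by 1.37 without both libraries numbered 1. Of its annotated exon bases, 44.6% are shared with AC079781.5 on the same strand, which was not analysed here. The pseudogene ASNSP1 was listed at 0 in all 6 libraries.

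PCK2 (chr14:24094053-24110598, plus strand) encodes the mitochondrial phosphoenolpyruvate carboxykinase. It was at 8.03, 8.32 and 7.96 TPM in siRRN3 libraries, against 20.5, 22.5 and 20.6 TPM in control libraries. The replicates of each group lay closer together than for CHAC1 and ASNS, and PCK2 had the smallest adjusted p of the members. The log2 change was -1.29 (SE 0.11, limma adjusted p = 0.000161). PCK1, the cytosolic form of the enzyme, was under the minimum for testing.

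DDIT4 (chr10:72273920-72276036, plus strand), also called REDD1, encodes an inhibitor of mTORC1 that is known to be raised by p53, hypoxia and glucocorticoids as well as by ATF4. It was at 118, 125 and 125 TPM in siRRN3 libraries, against 112, 101 and 112 TPM in control libraries. Each siRRN3 library was higher than each control library, as for 17.9% of all genes tested. The means were 123 ± 4.14 TPM for siRRN3 and 108 ± 6.39 TPM for control (SD, n = 3 each). The log2 change of 0.18 (SE 0.08, 95% interval 0.01 to 0.36) did not pass the test (limma adjusted p = 0.113). It passed upward after removal of each library's GC trend (log2 change 0.35, adjusted p = 0.0157, range over the alternatives 0.0157 to 0.315). Of its exon bases, 41.2% are shared with DDIT4-AS1 on the opposite strand, which was not analysed here.

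The order of the levels changed little at the top. ATF4 and DDIT4 were the highest and second highest members in both groups, and DDIT4 was well below ATF4 in every library. Next below them came CEBPB, TRIB3 and ASNS in siRRN3 libraries (31.9 ± 2.38, 23.6 ± 1.01 and 20.1 ± 3.93 TPM), against ASNS, CEBPB and TRIB3 in control libraries (53.3 ± 9.36, 45.3 ± 3.65 and 35.2 ± 4.73 TPM). The TRIB3 and ASNS levels overlapped in siRRN3 libraries, as did those of ASNS and CEBPB in control libraries. CEBPG was the lowest member in control libraries (8.69 ± 0.914 TPM), and CHAC1 in siRRN3 libraries (3.95 ± 0.397 TPM). PCK2 and CEBPG in siRRN3 libraries (8.10 ± 0.190 and 8.12 ± 2.86 TPM) did not differ beyond their spread, nor did PCK2 and ATF5 in control libraries (21.2 ± 1.14 and 20.7 ± 1.78 TPM).

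The level of each member relative to ATF4 in the same library does not depend on how libraries are scaled, apart from the pseudocount. The ratios of TRIB3, CEBPB and ATF5 to ATF4 overlapped between the groups, and their means differed by less than the SD of the control libraries. For TRIB3 the log2 ratio was -3.33 ± 0.04 in siRRN3 and -3.34 ± 0.19 in control libraries (SD, n = 3 each). The ratios of CHAC1, ASNS, PCK2 and DDIT3 were lower in siRRN3 libraries with no overlap, by -0.998, -0.80, -0.73 and -0.40. For CHAC1 the log2 ratio was -5.54, -5.72 and -5.66 in siRRN3 libraries, against -4.90, -4.33 and -4.70 in control libraries. The ratios of DDIT4 and CEBPG were higher in siRRN3 libraries with no overlap, by 0.74 and 0.43. ATF4 itself fell by 0.56 on the log2 scale, so a gene that did not change also has a higher ratio. The median log2 change over all genes tested was -0.05. Their ratios to ATF4 were not examined, so the share of genes whose ratio has no overlap is not known. Each member ratio with no overlap had an exact two-sided permutation p of 0.1, the smallest possible, or 0.15 adjusted over the 9 ratios. With 3 libraries a group this test cannot give less, so the ratios are given as values.

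**Figure D3:**
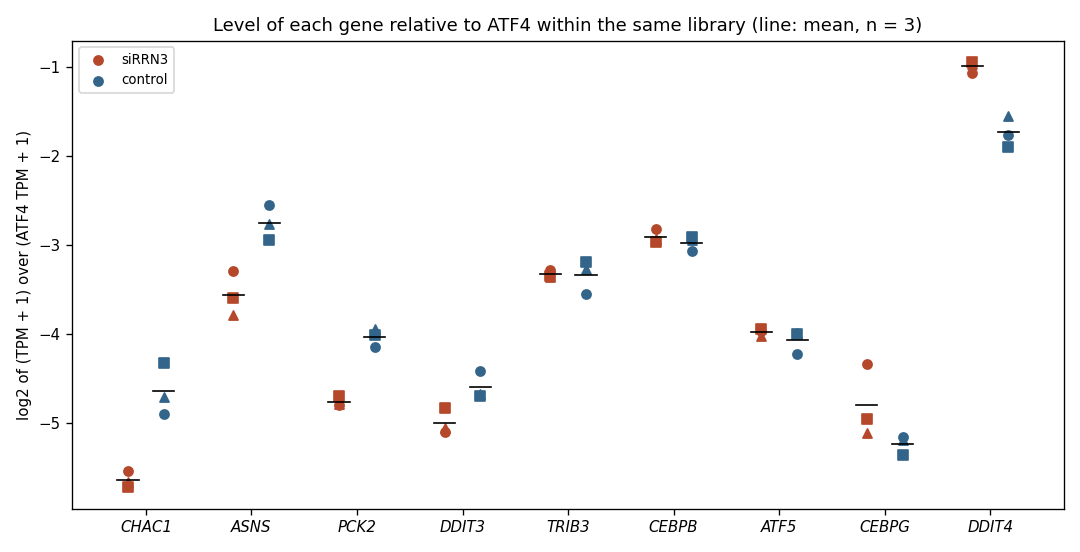
Log2 ratio of each gene's TPM + 1 to that of ATF4 in the same library (y axis) for the 3 siRRN3 and 3 control libraries, with a line at each mean. CHAC1, ASNS, PCK2 and DDIT3 lie lower in siRRN3 libraries, TRIB3, CEBPB and ATF5 overlap, and DDIT4 and CEBPG lie higher. Since ATF4 fell, a gene that did not change would also lie higher. The ratios of other genes to ATF4 were not examined.

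By the root mean square difference of log2(TPM + 1), centred on the control mean, over the 6 libraries, the genes nearest to ATF4 were ZNF784, SSTR5 and HNF4A. Their differences from ATF4 were 0.034, 0.038 and 0.041. They were picked as the nearest of all tested genes that are not members, and a shared regulation was not tested. ZNF784 and SSTR5 averaged 2.78 and 3.78 TPM in siRRN3 and 4.58 and 5.98 TPM in control libraries, far below ATF4. HNF4A, a transcription factor of gut and liver epithelium, averaged 3.38 TPM in siRRN3 and 5.33 TPM in control libraries. The genes nearest to CHAC1 were UBALD2, MAD1L1 and PCYT2, at 0.059, 0.095 and 0.122. PCYT2, an enzyme of phosphatidylethanolamine synthesis, averaged 21.8 TPM in siRRN3 and 64.1 TPM in control libraries.

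Beyond the members, 51 further genes known as ATF4 targets were listed from textbook knowledge, with earlier results of these data known. Of the list, 42 genes reached the minimum for testing. Of these, 17 fell, 4 rose and 21 did not pass the test, against 19.0% falling and 11.2% rising over all genes. Their median log2 change was -0.28. One of those that fell, SLC1A4, reached the minimum through its control libraries, at a mean of 0.838 TPM in siRRN3 and 2.33 TPM in control libraries. Without siRRN3 replicate 2 the number that fell was 10, and without control replicate 2 it was 11. Over all genes 11.9% and 13.9% fell in those fits. The 9 below the minimum were NUPR1, VLDLR, FGF21, INHBE, KLHL24, CCPG1, SLC7A11, ALDH1L2 and CBS.

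Enzymes of amino acid and one-carbon metabolism fell in 9 of 10 tested cases and rose in 0, with a median log2 change of -0.54. Over all genes tested, 19.0% fell and 11.2% rose. PHGDH, the first enzyme of serine synthesis, was at 38.2, 37.5 and 42.0 TPM in siRRN3 libraries, against 145, 160 and 158 TPM in control libraries. This change of -1.95 (SE 0.08, limma adjusted p = 1.53e-05) was larger than that of any member. Of 7 tested amino acid transporters 4 fell and 0 rose (median -0.57). SLC7A5 and SLC3A2, which form the large neutral amino acid exchanger, fell to 140 and 193 TPM in siRRN3 libraries, against 235 and 274 TPM in control libraries (limma adjusted p = 0.00113 and 0.000922).

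The tRNA charging and export genes had a median log2 change of -0.02, with 1 of 12 falling, 1 rising and 10 not past the test. Over all genes tested, 19.0% fell and 11.2% rose, so these counts do not stand out from the whole table. AARS1, the alanyl-tRNA synthetase, fell to 53.2 ± 1.85 TPM in siRRN3 libraries, against 128 ± 12.2 TPM in control libraries. SARS1, the seryl-tRNA synthetase, rose to 177 ± 3.54 TPM in siRRN3 libraries, against 112 ± 2.52 TPM in control libraries (limma adjusted p = 0.000349).

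Of 13 stress response and signalling targets tested, 3 rose and 3 fell, with a median log2 change of 0.02, against 11.2% rising and 19.0% falling over all genes. SESN2, an inhibitor of mTORC1 that is also a known p53 target, was at 40.6, 36.6 and 38.6 TPM in siRRN3 libraries, against 13.0, 14.3 and 12.2 TPM in control libraries (log2 change 1.49, SE 0.10, limma adjusted p = 6.73e-05). GDF15, a secreted stress cytokine that p53 also raises, averaged 338 ± 4.66 TPM in siRRN3 and 173 ± 14.4 TPM in control libraries. ATF3, a stress-induced leucine zipper factor, was at 47.6, 47.6 and 40.7 TPM in siRRN3 libraries, against 31.7, 32.2 and 28.3 TPM in control libraries (limma adjusted p = 0.00586). These rises stood beside the falls of ATF4 and DDIT3 in the same libraries.

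**Figure D4:**
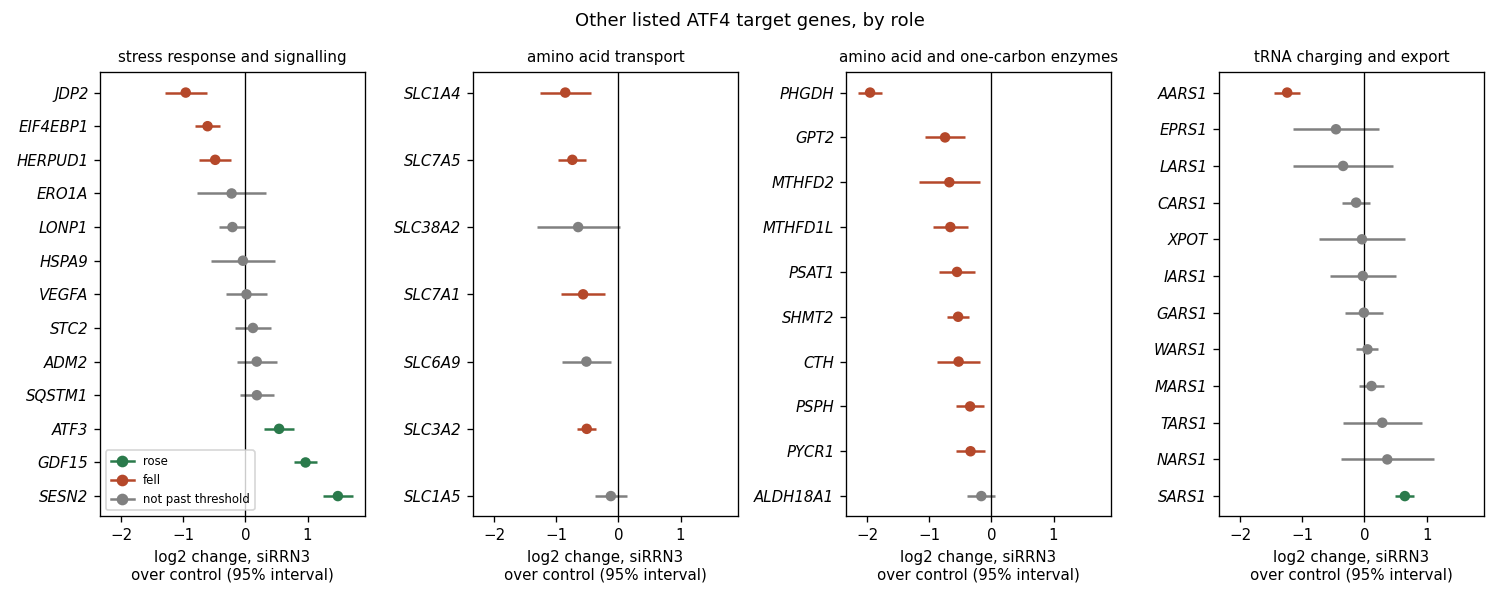
Log2 change, siRRN3 over control, with its 95% interval for the 42 tested genes of the wider ATF4 target list, in 4 panels by role. Falls make up 9 of 10 points among the amino acid and one-carbon enzymes, while SESN2, GDF15 and ATF3 rose among the stress response and signalling genes. Over all genes tested, 19.0% fell and 11.2% rose.

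Of the genes that act upstream of ATF4 translation, 1 of 14 rose and 0 fell, against 11.2% and 19.0% over all genes, with a median log2 change of -0.09. EIF2B2, a subunit of the exchange factor that recharges eIF2, rose to 87.8 ± 0.986 TPM in siRRN3 libraries, against 59.9 ± 2.36 TPM in control libraries (limma adjusted p = 0.0012). The amino acid sensing kinase gene EIF2AK4, also called GCN2, named after its values were seen, averaged 23.6 ± 7.57 TPM in siRRN3 and 15.9 ± 2.74 TPM in control libraries (adjusted p = 0.123). It passed the test upward with median-of-ratios scaling, with quantile normalization, with the GC trend removed, without both libraries numbered 1 and without siRRN3 replicate 3, and its adjusted p was 0.00215 to 0.298 over the 19 alternatives. PPP1R15B, a gene of eIF2 phosphatase, also named after its values were seen, went the other way. It did not pass as reported (log2 change -0.39, limma adjusted p = 0.273). The fits in which PPP1R15B passed downward included those with the GC trend removed, without both libraries numbered 1 and with the replicate as a block. The number of upstream genes that changed was 3 without siRRN3 replicate 1, and 2 without siRRN3 replicate 3. Over all genes 10.4% rose and 24.8% fell in the first of these fits, and 10.4% and 14.6% in the second.

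Of the members' relatives, 13 were tested, 2 rose and 2 fell, against 30.3% of all genes changed in either direction. ATF6B, a membrane-bound factor of the unfolded protein response, fell to 18.0 ± 0.755 TPM in siRRN3 libraries, against 29.1 ± 1.58 TPM in control libraries. ATF6, its paralog, rose to 22.7 ± 3.67 TPM in siRRN3 libraries, against 15.9 ± 1.64 TPM in control libraries, and CEBPA fell to 4.94 ± 0.416 TPM, against 7.94 ± 1.38 TPM in control libraries. ATF3, described above, was the other rise. The ATF6 call ended without siRRN3 replicate 1 or 2 or control replicate 2 or 3 (adjusted p = 0.0635, 0.0936, 0.111 and 0.111). The CEBPA call ended without siRRN3 replicate 2 or 3 or control replicate 2 or 3 (adjusted p = 0.103, 0.0702, 0.0848 and 0.0599). With low genes kept in the fit both ended too (adjusted p = 0.0676 and 0.0546). The number of relatives that changed was 2 without siRRN3 replicate 2 or control replicate 3. Over all genes 6.46% rose and 11.9% fell without siRRN3 replicate 2, and 7.34% and 15.8% without control replicate 3.

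The 8 members that fell kept their direction under each of the 19 other processing choices. The calls of ATF4, DDIT3, TRIB3, CHAC1, ASNS and PCK2 held in each. The log2 change ranged from -0.63 to -0.48 for ATF4, from -1.76 to -1.37 for CHAC1, from -1.51 to -1.23 for ASNS and from -1.38 to -1.15 for PCK2.

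**Figure D5:**
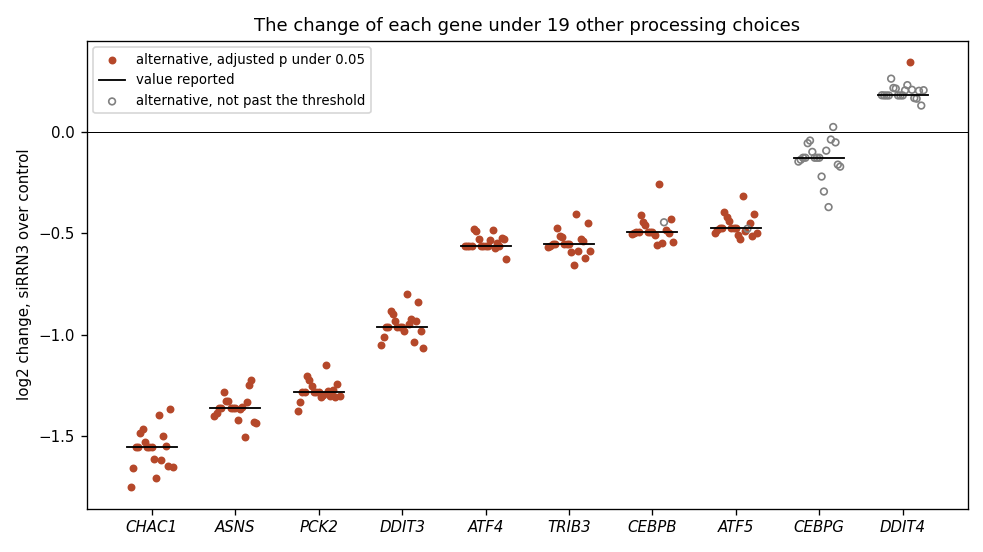
Log2 change of each gene, siRRN3 over control, as reported (black line) and under 19 other processing choices (points; filled when the adjusted p was under 0.05, open otherwise). The points of CHAC1, ASNS, PCK2 and DDIT3 lie below those of ATF4, and those of CEBPG spread around 0, from -0.37 to 0.03.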

How the data were processed

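RNA-seq was made from 3 siRRN3 and 3 control cultures of HCT116, grouped and numbered by the labels. The labels give poly(A) RNA as the molecule and Ribo-Zero for removal of ribosomal RNA. The authors deposited 1 TPM value per gene symbol and library; STAR, Salmon and GRCh38 are named in the submitters' processing notes, without roles. Depth is unknown, and versions, annotation, filters and strand handling are not stated in the sources at hand. Of 25662 genes, 3786 were listed at 0 in all libraries.

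The 12157 genes whose mean reached 1 TPM were fitted as log2(TPM + 1) on group with limma 3.58.1 in R 4.3.3 (eBayes with an intensity trend). On 10 simulated runs with 200 changed genes, 18.4%, 62.7% and 93.8% of log2 changes of 0.5, 1 and 2 were recovered, and 4.82% of calls were false. Far fewer genes changed there than here. The simulated noise was independent for each gene and library, without the GC pattern shared by the libraries numbered 1. These shares may therefore not hold for the data here. Exact permutation tests used scipy 1.17.1. Positions and transcript GC content (11941 of the tested genes, 98.2%) came from GENCODE 29 on GRCh38, and promoters from RefSeq (GRCh38.p14).

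The members, gene lists and tests were chosen with earlier results of these data known. Named were up to 4 genes per list and direction, by smallest adjusted p, and the 3 genes nearest in pattern to ATF4 and to the member with the largest fall; no member rose. EIF2AK4, PPP1R15B and the genes whose sites are printed in the closing section were named outside this rule, after their values were seen. Alternatives were other pseudocounts (0.1, 0.5), filters (none, 5 TPM) and scalings, other variance moderation, library weights, a replicate block, and leaving out libraries; removal of the GC trend by loess (span 0.3) was added after the data had been seen.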

Additional observations from a re-analysis of the deposited data

How the results depend on the processing

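Removing the GC trend gave 1 member that rose, DDIT4, against 0 as reported. The count of members that fell was 6 to 8 over all alternatives, and 6 only without siRRN3 replicate 2. The CEBPG log2 change was -0.37 to 0.026 when single libraries were left out, and above 0 only without siRRN3 replicate 3. Of the other ATF4 targets, 10 to 19 fell when single libraries were left out, and 4 rose in each of those fits. The number of upstream genes that changed, 1 as reported, was 2 with median-of-ratios scaling and with quantile normalization, 3 without both libraries numbered 1, 3 with the GC trend removed, and 1 to 3 when single libraries were left out. The number of relatives that changed, 4 as reported, was 2 without a filter on low values, 7 with median-of-ratios scaling, 7 without both libraries numbered 1, 7 with the GC trend removed, and 2 to 6 when single libraries were left out. Over all genes the shares that rose and fell, 11.2% and 19.0% as reported, also moved. They were 16.9% and 16.8% with median-of-ratios scaling, 18.1% and 18.8% with quantile normalization, and 22.9% and 22.1% with the GC trend removed. Without both libraries numbered 1 they were 14.5% and 25.3%, and without a filter on low values 5.51% and 9.86%. When single libraries were left out they were 6.46% to 10.4% and 11.9% to 24.8%. The cause of these shifts was not tested.

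Deviations from the group mean correlated by 0.42, 0.095 and 0.16 between libraries numbered 1, 2 and 3. siRRN3 replicate 2 correlated best with control replicate 3 (0.11), and siRRN3 replicate 3 with control replicate 2 (0.19), by small margins. The values do not settle whether the numbers mark pairs. The fit as reported did not take them as pairs. With the replicate as a block, 2295 genes rose and 3251 fell, against 1367 and 2312 as reported, 8 members fell, 3 upstream genes and 8 relatives changed, and EIF2AK4 passed upward (limma adjusted p = 0.00417). Over all genes 2056 rose and 2034 fell with median-of-ratios scaling, 2205 and 2284 with quantile normalization, 2735 and 2643 with the GC trend removed, and 788 and 1452 without siRRN3 replicate 2. The library weights did not fully converge. With 3 libraries a group and no depth, small changes such as those of DDIT4 and CEBPG are not resolved.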

Other observations

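The TGATGNAA letters were found in the promoter windows of 16 of the 40 other ATF4 targets that matched a RefSeq window (40.0%). This compares with 4.46% of all genes with a window and 2.47% of the tested genes with a window. Of these 16, 7 fell after RRN3 siRNA, 1 rose, 7 did not pass the test and 1 was below the minimum. Over all genes tested, 19.0% fell and 11.2% rose. Of the 24 without the letters, 5 fell, 3 rose, 12 did not pass and 4 were below the minimum. The median log2 change was -0.13 over the 15 tested targets with the letters and -0.19 over the 20 without them. These medians are a description of the list, with no test. The sites of all 7 that fell and of the 1 that rose, ATF3, are printed, to set beside those of ASNS, CHAC1 and CEBPG. The genes were chosen after their values were seen. The sites of the 7 that did not pass the test and of the 1 below the minimum are not printed. The motif is in capitals, 5′ to 3′ on the strand that holds it, and positions are on GRCh38.p14. Of those that fell, the sites are AARS1 chr16:70289675-70289704 (plus strand), HERPUD1 chr16:56931955-56931984 (minus strand), JDP2 chr14:75427995-75428024 (plus strand) and MTHFD1L chr6:150866346-150866375 (plus strand). The others are SLC1A4 chr2:64989381-64989410 (minus strand), SLC3A2 chr11:62881719-62881748 (minus strand) and SLC7A1 chr13:29595663-29595692 (minus strand). The ATF3 site is chr1:212565205-212565234 (plus strand).
AARS1: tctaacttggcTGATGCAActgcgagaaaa
HERPUD1: tgggcacgggcTGATGCAAcccgccgcgtc
JDP2: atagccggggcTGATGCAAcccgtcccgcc
MTHFD1L: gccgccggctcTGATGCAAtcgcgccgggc
SLC1A4: ccggctggagaTGATGCAAacgggagccgc
SLC3A2: ggagcTGATGTAAggagtcctgcacattac
SLC7A1: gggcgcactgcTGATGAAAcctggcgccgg
ATF3: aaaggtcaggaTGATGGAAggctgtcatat
JDP2, a leucine zipper repressor, averaged 8.50 ± 0.428 TPM in siRRN3 and 17.6 ± 3.20 TPM in control libraries (limma adjusted p = 0.00224). MTHFD1L, a mitochondrial one-carbon enzyme, averaged 33.4 ± 3.93 TPM in siRRN3 and 53.3 ± 5.53 TPM in control libraries (limma adjusted p = 0.00479).
The HERPUD1 call ended without siRRN3 replicate 2 (limma adjusted p = 0.0533), and the SLC7A1 call without siRRN3 replicate 2 or 3 or control replicate 1 or 2 (limma adjusted p = 0.0926, 0.0704, 0.0806 and 0.104) and with low genes kept in the fit (limma adjusted p = 0.0566).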
